A study of Rattus norvegicus with 40 samples.

Results

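MiR-22 was the miRNA with the most reads in a count table of rat plasma after traumatic brain injury (TBI) or sham operation. Its 2 arms, rno-miR-22-3p and rno-miR-22-5p, are 2 of the 752 miRNA rows in the deposited count table, of which 581 had at least 1 read. They were selected on a measured value, the mean share of library reads taken by miR-22-3p, so that its high share is described here without a test. Plasma small RNA was sequenced from 20 adult male Sprague-Dawley rats on day 2 (D2) and on D9, 40 libraries in all. Of these rats, 4 were sham-operated, with anesthesia and craniotomy but no impact, and 16 had TBI by lateral fluid-percussion injury, in which a fluid pulse strikes the exposed dura. Of the TBI rats, 7 had epilepsy (TBI+) and 9 did not (TBI−) in video-EEG in the sixth month after injury. All rats were operated on, so these libraries hold no naïve plasma. For each rat and day, aliquots of tail-vein EDTA plasma were pooled before extraction, and 1 library was sequenced.

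A miRNA is cut from a hairpin precursor, and usually one arm is retained in the silencing complex while the other is degraded. Bases 2 to 8 of the retained arm, the seed, pair with target mRNAs. MiR-22 is conserved among vertebrates, is present in many tissues and blood cells, and is best known from studies of heart and skeletal muscle, where its 3p arm is the abundant one. In plasma, miRNAs circulate in vesicles and protein complexes, and red blood cells and platelets can release their own miRNAs during sampling.

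The mature sequences of both arms are shown because each arm was followed separately, with that of miR-92a-3p, the miRNA with the second highest mean share. The sequences and positions come from RefSeq (GRCr8), the letters in capitals mark the seed, and the authors' own alignment used the build Rno6.
rno-miR-22-3p: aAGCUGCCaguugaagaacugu
rno-miR-22-5p: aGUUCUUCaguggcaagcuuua
rno-miR-92a-3p: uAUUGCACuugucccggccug
The Mir22 hairpin is shown with both arms in capitals, the 5p arm before the 3p arm.
Mir22 hairpin: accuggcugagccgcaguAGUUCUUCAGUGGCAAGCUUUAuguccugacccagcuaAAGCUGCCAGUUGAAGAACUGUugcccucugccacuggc

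Rat miR-22 had 1 hairpin gene in RefSeq, at chr10:60805331-60805425 on the plus strand of GRCr8. The 3p arm lies at chr10:60805387-60805408 and the 5p arm at chr10:60805349-60805370, with 16 bases between the arms. No other gene in the RefSeq table overlapped the hairpin. Its neighbours were Mir6326, which ended 142 bases before it, and Tlcd2, which began 3965 bases after it. None of the other RefSeq rat mature miRNAs had the seed of either arm. The most similar mature sequence was 9 edits away from miR-22-3p (miR-152-3p) and 8 edits away from miR-22-5p (miR-216a-5p), so neither arm has a near-identical copy with which it could share reads.

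The library total, the number of reads over all miRNA rows, ranged from 140636 to 2864893. On D9, TBI rats had 1275686 ± 706121 reads (SD, n = 16) and sham-operated rats 215756 ± 98315 (SD, n = 4; p = 0.00826 in a two-sided exact permutation test). Shares are relative to this total, and CPM is the number of reads per 1000000 reads of it. Among the rows with 0 reads in all libraries were 10, miR-122-5p and let-7d-5p among them, whose other arm had at least 1000 reads. The shares below are therefore shares of the reads in the table. If reads of these rows were lost in counting, the share and rank of miR-22-3p would be too high, which was not tested. The 95% Wilson interval of the miR-22-3p share was between 0.0662 and 0.462 percentage points wide per library, and covers counting error only.

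MiR-22-3p took 14.3% ± 5.31 of the library total (SD over 40 libraries), with a lowest share of 7.52%, a median of 13.1% and a highest share of 27.9%. It had the most reads of all miRNAs in 28 of 40 libraries, was the second in 11 and the fourth in 1, from TBI− rat 6 on D9. In the other 12 libraries the leading miRNA was miR-92a-3p, a member of the miR-17-92 cluster. The next 5 miRNAs by mean share were miR-92a-3p at 10.9%, miR-10b-5p at 6.41%, miR-10a-5p at 6.39%, miR-192-5p at 5.30% and miR-30a-5p at 4.07%. MiR-10a-5p and miR-10b-5p are near-identical, so reads may have been split between them. These levels are numbers of reads and not of molecules, since adapter ligation differs between sequences.

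MiR-22-3p led in 16 of 20 D2 libraries and in 12 of 20 D9 libraries. On D9 it led in 4 of 4 sham-operated and in 8 of 16 TBI rats, with miR-92a-3p ahead in the other 8. MiR-22-5p had between 6 and 665 reads per library and reads in each of the 40. Over all libraries, 6061693 reads lay on the 3p arm and 5497 on the 5p arm. The 3p arm thus held nearly all miR-22 reads.

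In sham-operated rats 1 to 4 on D2, miR-22-3p took 10.3%, 14.5%, 12.2% and 12.9% of the library. On D9 the same rats had 26.5%, 10.7%, 26.4% and 14.7%. The share thus more than doubled in rats 1 and 3, differed little in rat 4 and was lower in rat 2.

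In TBI+ rats on D2 the lowest miR-22-3p share was 12.1%, the median 13.3% and the highest 21.1%. On D9 these rats had between 7.52% and 16.3%, with a median of 11.0%. In TBI− rats the share was between 9.57% and 27.9% on D2, with a median of 16.98%, and between 7.56% and 19.2% on D9, with a median of 9.96%. The ranges of the groups overlapped on both days. From the highest to the lowest mean, the order was sham D9 (19.6% ± 8.13, SD, n = 4), TBI− D2 (16.98% ± 5.69, SD, n = 9), TBI+ D2 (15.5% ± 3.60, SD, n = 7), sham D2 (12.5% ± 1.75, SD, n = 4), TBI− D9 (11.5% ± 4.35, SD, n = 9) and TBI+ D9 (11.1% ± 3.17, SD, n = 7). Each neighbouring pair in this order differed by less than the larger of its SDs.

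**Figure D1:**
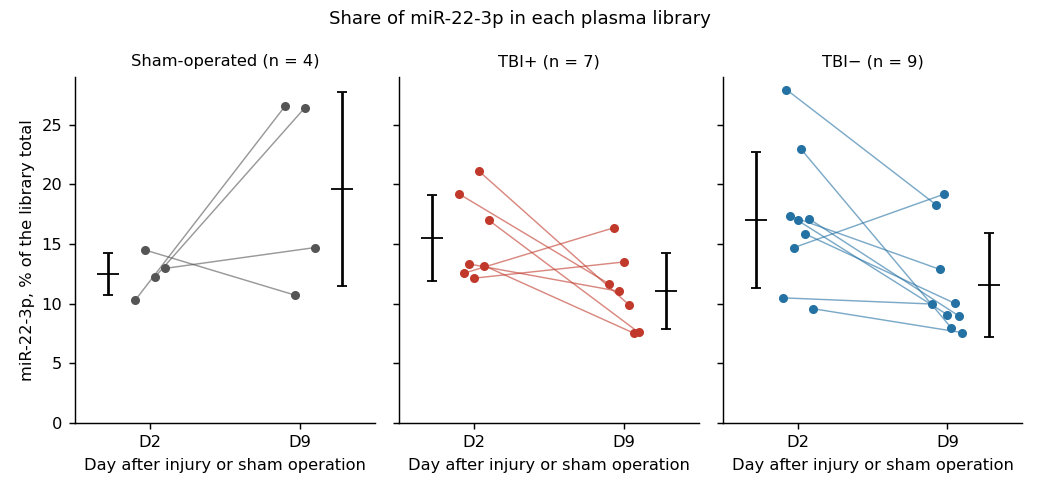
Share of miR-22-3p in each library, in percent of the library total (vertical axis), on D2 and D9 in sham-operated, TBI+ and TBI− rats. Points are libraries, lines join the libraries of a rat, and bars beside them give the mean and SD; 13 of 16 TBI rats had a lower share on D9, and sham-operated rats 1 and 3 had shares of 26.5% and 26.4% on D9.

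No difference of miR-22 between TBI and sham-operated rats passed a test on D2. The share of miR-22-3p was 16.3% ± 4.80 in TBI rats (SD, n = 16) and 12.5% ± 1.75 in sham-operated rats (SD, n = 4; p = 0.131 in a two-sided exact permutation test, adjusted p = 0.222 over 27 tests). The edgeR log2 fold change was 0.52 (SE 0.26, adjusted p = 0.286), where the median over all miRNAs tested was 0.09. MiR-22-5p had 174 ± 55.2 CPM in TBI rats (SD, n = 16) and 152.4 ± 52.3 CPM in sham-operated rats (SD, n = 4), with an edgeR log2 fold change of 0.29 (SE 0.28, adjusted p = 0.623). Neither arm was among the 35 miRNAs called of 565 tested (6.19%).

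On D9 the share of miR-22-3p was lower in TBI rats, at 11.3% ± 3.76 (SD, n = 16) against 19.6% ± 8.13 in sham-operated rats (SD, n = 4), a difference of -8.26 percentage points (p = 0.0109 in a two-sided exact permutation test, adjusted p = 0.0422). This difference lay in sham-operated rats 1 and 3. Without rat 1 the exact permutation p was 0.0526 and the difference -5.94 points, and without rat 3 the p was also 0.0526, with -5.98 points. The edgeR log2 fold change was -0.68 (SE 0.27), which did not pass the adjustment over 541 miRNAs (adjusted p = 0.172). The median log2 fold change of these miRNAs was 0.30, and when libraries were scaled by their totals without miR-22 it was 0.02 and that of miR-22-3p -0.96 (edgeR adjusted p = 0.0404). Neither arm was among the 19 miRNAs called on D9 (3.51% of those tested), a count that was 0 without sham-operated rat 2, with 70 miRNAs at an unadjusted p below 0.05.

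The sham-operated rats also had few reads on D9, and only rat 4 had a library total within the range of the TBI rats. With the log2 library total as a covariate, an alternative added after the data were seen, the edgeR log2 fold change of miR-22-3p on D9 turned to 0.16 (adjusted p = 0.948). Within the single run of library numbers that held the 4 sham-operated and 4 TBI+ libraries, the difference in share was -6.46 points (p = 0.257, exact permutation test; smallest possible p = 0.0286). The covariate fit thus rests on little overlap of the library totals.

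MiR-22-5p on D9 had 59.7 ± 16.5 CPM in TBI rats (SD, n = 16) and 82.8 ± 40.7 CPM in sham-operated rats (SD, n = 4; p = 0.0830 in a two-sided exact permutation test; edgeR log2 fold change -0.37, SE 0.33, adjusted p = 0.694). The 4 sham-operated rats had 127.99, 92.5, 29.7 and 81.0 CPM, of which the value of rat 3 rested on 6 reads (95% Wilson interval from 13.6 to 64.8 CPM). Without that rat the difference of TBI from sham-operated rats was -40.8 CPM (p = 0.00310, exact permutation test). Without rat 1, which had the highest level, it was -8.05 CPM (p = 0.522, exact permutation test).

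No difference of miR-22 between rats with and without later epilepsy passed a test. The share of miR-22-3p differed by -1.49 percentage points between TBI+ and TBI− rats on D2 (p = 0.564 in a two-sided exact permutation test) and by -0.46 points on D9 (p = 0.819, exact permutation test). The CPM of miR-22-5p differed by -2.86 on D2 (p = 0.921, exact permutation test) and by 15.5 on D9, where TBI+ rats had 68.4 ± 16.2 CPM (SD, n = 7) and TBI− rats 52.9 ± 13.97 CPM (SD, n = 9; p = 0.0605, exact permutation test, adjusted p = 0.148). In edgeR, 0 of 565 miRNAs were called on D2 (0%) and 0 of 541 on D9 (0%). At an unadjusted p below 0.05 there were 38 and 22 miRNAs, and DESeq2 also called 0 on both days. With the animal number as a block, which does not pair rats between these groups, edgeR called 0 on D9 and 3 on D2, miR-19a-3p, miR-19b-3p and miR-205, which were singled out after their values were seen.

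Between D2 and D9, both arms fell in TBI rats. MiR-22-3p fell from 16.3% to 11.3% of the library, a mean change within rats of -5.0 percentage points ± 5.47 (SD, n = 16; exact permutation of signs, two-sided, p = 0.00308, adjusted p = 0.0211), and was lower in 13 of 16 rats. The rats with a higher share on D9 were TBI+ rats 2 and 4 and TBI− rat 4. In edgeR the log2 fold change was -0.53 (SE 0.17, adjusted p = 0.0145). MiR-22-3p was thus 1 of 186 miRNAs called of 581 tested (32.0%), a comparison in which a call is common.

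The share of miR-22-3p changed by -4.42 points in TBI+ rats (exact permutation of signs, p = 0.0938, n = 7) and by -5.45 points in TBI− rats (exact permutation of signs, p = 0.0195, adjusted p = 0.0527, n = 9). It was lower on D9 in 5 of 7 TBI+ and 8 of 9 TBI− rats. The difference of these changes between TBI+ and TBI− rats was not tested. The range of the change was wide in both groups.

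MiR-22-5p fell further than miR-22-3p in TBI rats. Its level on D2 was between 89.4 and 292 CPM, with a median of 177.4 CPM, and on D9 between 34.0 and 89.2 CPM, with a median of 58.2 CPM. The days thus did not overlap, the lowest D2 value being just above the highest D9 value. Within rats the change was -114 CPM ± 61.3 (SD, n = 16), a fall in 16 of 16 (exact permutation of signs, two-sided, p = 3.05e-05, the smallest possible p; adjusted p = 0.000412). The edgeR log2 fold change was -1.55 (SE 0.18, adjusted p = 1.19e-09).

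In sham-operated rats neither arm was among the 39 miRNAs called between the days of 581 tested (6.71%). The share of miR-22-3p was 7.11 points higher on D9 (exact permutation of signs, p = 0.375; smallest possible p with 4 rats = 0.125), with an edgeR log2 fold change of 0.70 (SE 0.35, adjusted p = 0.283). Scaled to miR-28-3p it was 0.93 (edgeR adjusted p = 0.0451). MiR-22-5p had 74.0, 180, 174 and 181 CPM on D2 in rats 1 to 4, against 127.99, 92.5, 29.7 and 81.0 CPM on D9. It was lower on D9 in 3 of 4 rats, with an edgeR log2 fold change of -0.90 (SE 0.38, adjusted p = 0.179). Without rat 1, the only one with a higher level on D9, the log2 fold change was -1.48 (edgeR adjusted p = 0.0327).

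The day change of the miR-22-3p share differed between TBI and sham-operated rats, and whether the edgeR test of this difference passed depended on the setting. The share changed by -5.0 points in TBI rats and by 7.11 points in sham-operated rats, a difference of -12.1 points (p = 0.00557 in a two-sided exact permutation test, adjusted p = 0.0251). The edgeR estimate of the difference was -1.24 on the log2 scale (SE 0.39, adjusted p = 0.0667, with 22 of 581 miRNAs called, 3.79%). With the rat as a block it was -1.10 (adjusted p = 0.0396). It also passed with RLE factors (edgeR adjusted p = 0.0211), total count (0.0480), totals without miR-22 (0.0318), scaling to miR-28-3p (0.0112) and a minimum count (0.0345). It did not pass in any of the 4 fits that each left out 1 sham-operated rat (-1.46 to -0.82). Their edgeR adjusted p was between 0.0592 and 0.396, the highest without rat 1. With TMM factors from the table without miR-22 it was -1.23 (edgeR adjusted p = 0.0561). For miR-22-5p the estimate was -0.65 (SE 0.42, adjusted p = 0.492). No fit of these differences held the library total, which was low in the sham-operated rats on D9.

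The library numbers in the sample labels formed 3 runs with gaps between them, and what the runs stand for was not given in the sources used here. All sham-operated D2 libraries were in the first run and all their D9 libraries in the last run, so run and day cannot be told apart in these rats. TBI rats had their days in 5 different combinations of runs. The share of miR-22-3p was lower on D9 in 2 of 4 rats that went from the first to the last run, in 6 of 7 that went from the middle to the first run, and in all 5 others. With the rat and the run of library numbers both in the edgeR fit, the log2 fold change between the days in TBI rats was -0.53 for miR-22-3p (adjusted p = 0.00467) and -1.51 for miR-22-5p (adjusted p = 2.79e-10).

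The ratio of the arms was lower on D9 in every rat. In TBI rats there were between 0.692 and 1.45 reads of miR-22-5p per 1000 reads of miR-22-3p on D2, with a median of 1.08, and between 0.231 and 0.809 on D9, with a median of 0.593. The log2 ratio of 5p to 3p reads changed by -0.99 ± 0.52 within rats, a fall in 16 of 16 (exact permutation of signs, two-sided, p = 3.05e-05, the smallest possible p; adjusted p = 0.000412). This ratio is taken within a library, so that neither the library total nor a scaling factor enters it.

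Sham-operated rats had 0.721, 1.25, 1.42 and 1.40 reads of miR-22-5p per 1000 of miR-22-3p on D2, and 0.482, 0.864, 0.112 and 0.551 on D9. The ratio was lower on D9 in 4 of 4 rats, by a mean of -1.53 on the log2 scale (exact permutation of signs, p = 0.125, the smallest possible with 4 rats). Rat 3 on D9, with 6 reads of the 5p arm, had the lowest ratio of all 40 libraries (95% Wilson interval 0.0515 to 0.245 per 1000). Without it the mean change was -0.82.

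**Figure D2:**
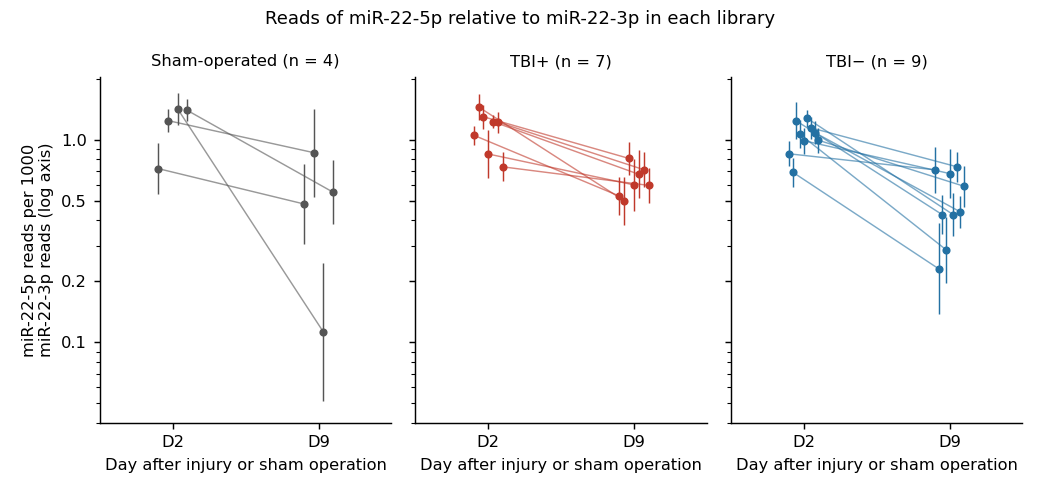
Reads of miR-22-5p per 1000 reads of miR-22-3p (vertical axis, log scale) on D2 and D9, by group. Points are libraries, bars are 95% Wilson intervals for counting error, and lines join the libraries of a rat; the ratio was lower on D9 in 16 of 16 TBI rats and in 4 of 4 sham-operated rats.

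No difference of the arm ratio between groups passed a test on either day. TBI minus sham was -0.13 on the log2 scale on D2 (p = 0.495 in a two-sided exact permutation test) and 0.41 on D9 (p = 0.301, exact permutation test). TBI+ minus TBI− was 0.10 on D2 (p = 0.540, exact permutation test) and 0.41 on D9 (p = 0.112, exact permutation test). The day change of the ratio in TBI rats minus that in sham-operated rats was 0.54 (p = 0.216, exact permutation test), and -0.17 without sham-operated rat 3. The ratio fell in all 5 combinations of library runs among TBI rats, by means between -0.54 and -1.17, though 2 of these held 1 rat each.

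Both arms of a hairpin had reads for 202 miRNAs, a comparison added after the values of miR-22 were seen. MiR-22 had 0.907 reads on its lesser arm per 1000 on its greater arm over all libraries, where the median hairpin had 29.9. Only 26 hairpins had a lower ratio, so the imbalance of its arms was large among those counted. In 21 hairpins, both arms had at least 5 reads in every library. Among these, the mean day change in TBI rats was between -0.99 for miR-22 and 1.16 for miR-142, with a median of 0.13.

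The change was negative in 8 of these 21 hairpins, and miR-22 was the only one with a lower ratio in all 16 TBI rats. It was followed by miR-144 (-0.65, lower in 11 of 16), miR-21 (-0.63, lower in 14 of 16), miR-30e (-0.45) and miR-30a (-0.38). No test was made across hairpins, which share their libraries.

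**Figure D3:**
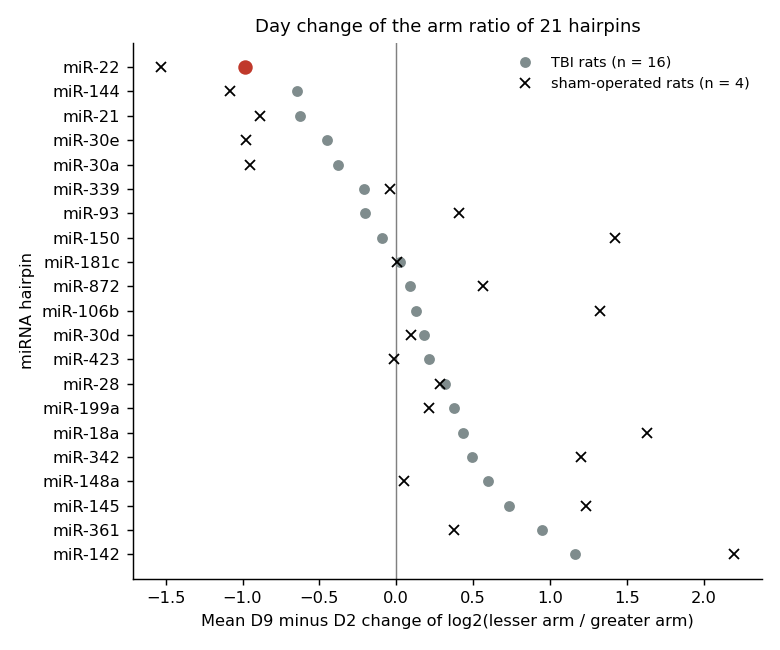
Mean D9 minus D2 change of the log2 ratio of the lesser to the greater arm (horizontal axis) for the 21 hairpins with at least 5 reads on both arms in every library. Circles are means over 16 TBI rats, with miR-22 in red, and crosses are means over 4 sham-operated rats; miR-22 has the most negative value in TBI rats, and its sham value of -1.53 was -0.82 without rat 3.

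Red blood cell miRNAs rose between the days in TBI rats, in which miR-22 fell. The list used here held 4 miRNAs in the table, miR-451-5p, an abundant miRNA of red blood cells, miR-144-3p and miR-144-5p from the same gene cluster, and the more widespread miR-16-5p. In TBI rats their summed share of the library had a median of 2.48% on D2 (1.08% to 4.83%) and of 4.17% on D9 (1.79% to 7.43%). In sham-operated rats it was 2.25% to 3.19% on D2 and 1.36% to 4.48% on D9. All 4 passed the edgeR test between the days in TBI rats, in which 186 of 581 miRNAs were called (32.0%) and 81 of these were higher on D9, with log2 fold changes of 0.86 for miR-451-5p (adjusted p = 0.00287), 1.11 for miR-144-3p (adjusted p = 0.000125), 0.54 for miR-144-5p (adjusted p = 0.0473) and 0.59 for miR-16-5p (adjusted p = 0.00949).

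The log2 ratio of miR-451-5p to miR-23a-3p, which is used as a sign of hemolysis, was -0.28 ± 0.64 on D2 and 1.28 ± 0.63 on D9 in TBI rats (SD, n = 16). It was -0.52 ± 0.66 on D2 and 1.13 ± 0.23 on D9 in sham-operated rats (SD, n = 4). MiR-23a-3p itself fell in TBI rats (edgeR log2 fold change -0.74, adjusted p = 0.000284), so the ratio moved through both of its miRNAs. In sham-operated rats miR-23a-3p fell (edgeR log2 fold change -1.37, adjusted p = 0.00764), and miR-451-5p had a log2 fold change of 0.15 (edgeR adjusted p = 0.997). The index was thus higher on D9 in both groups, while the miR-22-3p share was lower on D9 in 13 of 16 TBI rats and in 1 of 4 sham-operated rats. Its part in the results of miR-22 was not tested. By the study's methods, plasma was screened for hemolysis by eye and by its hemoglobin absorbance when aliquots were pooled. Where blood cells are a source, fewer cells and less RNA per cell cannot be told apart in plasma.

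The lists of other cell types also moved between the days in TBI rats, and their part in the results of miR-22 was not tested. The summed share of the platelet and myeloid list had a median of 5.66% on D2 and 7.34% on D9, and miR-223-3p, miR-126a-3p and miR-142-3p passed the edgeR test as higher on D9. Its most abundant members, miR-191a-5p and miR-142-5p, were not called (edgeR adjusted p = 0.223 and 0.381). For the lymphocyte list the medians were 1.55% and 2.12%, with miR-150-5p called as higher and miR-342-3p not called (edgeR adjusted p = 0.418). For the liver list they were 3.41% and 5.41%, with miR-194-5p called as higher and the defining miR-122-5p listed at 0. Most reads of this list were of miR-192-5p, which was not called (edgeR log2 fold change 0.42, adjusted p = 0.216). MiR-122-3p went the other way and was not called (edgeR log2 fold change -0.69, adjusted p = 0.138). The muscle and heart list had medians of 0.0308% and 0.00548%, with miR-1-3p and miR-133a-3p listed at 0. In it, miR-133b-3p (edgeR log2 fold change -2.69, adjusted p = 9.72e-12), miR-208a-3p and miR-208b-3p were called as lower. The brain list had medians of 0.669% and 0.571%, with miR-124-3p, miR-129-5p and miR-132-3p called as lower. Nearly all of its reads were of miR-128-3p, which was not called (edgeR log2 fold change -0.19, adjusted p = 0.457). In sham-operated rats the median of the liver list went from 3.72% on D2 to 7.46% on D9. Their muscle and heart list went from 0.0266% to 0.0111% and their brain list from 0.635% to 0.260%, all in the direction of TBI rats. Their platelet and myeloid list (6.53% and 4.67%) and lymphocyte list (2.98% and 1.56%) moved the opposite way.

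Across the 16 TBI rats of a day, miR-22-3p was lower where the red blood cell list was higher. Most reads of this list were of the widespread miR-16-5p, with a mean share of 2.83% of the library against 0.428% for miR-451-5p. The relation is thus largely one with miR-16-5p, and the members were not tested separately. Here the list was taken as a percent of the reads other than miR-22, so that miR-22 itself does not enter it, and 6 relations were computed. On D2, Pearson's r was -0.74 (permutation p = 0.000950, adjusted p = 0.00285) and Spearman's rho -0.66 (permutation p = 0.00645, adjusted p = 0.0129). On D9, r was -0.78 (permutation p = 0.000260, adjusted p = 0.00156) and rho -0.81 (permutation p = 0.000350, adjusted p = 0.00174). Without the 2 rats farthest from the median of the list, r was -0.63 on D2 and -0.73 on D9. Within the only run of library numbers with at least 6 of these libraries, 8 on each day, r was -0.85 on D2 and -0.90 on D9, and the other 2 runs held 4 each.

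The relation with the miR-451-5p to miR-23a-3p ratio was weaker. On D2, r was -0.53 (permutation p = 0.0320, adjusted p = 0.0481) and rho -0.54 (permutation p = 0.0331, adjusted p = 0.0496), with r = -0.46 without the 2 farthest rats and -0.53 within the run of 8. On D9, r was -0.40 (permutation p = 0.124, adjusted p = 0.148) and rho -0.37 (permutation p = 0.162, adjusted p = 0.194), with r = -0.30 without the 2 farthest rats and -0.51 within the run of 8.

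The relation of the miR-22-3p share with the library total passed the test on D9 only. On D9, r was -0.70 (permutation p = 0.00228, adjusted p = 0.00456) and rho -0.78 (permutation p = 0.000580, adjusted p = 0.00174), with r = -0.71 without the 2 farthest rats and -0.80 within the run of 8. On D2, r was -0.12 (permutation p = 0.651, adjusted p = 0.651) and rho -0.10 (permutation p = 0.721, adjusted p = 0.721), with r = -0.22 without the 2 farthest rats and -0.27 within the run of 8. The difference between the days was not tested.

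**Figure D4:**
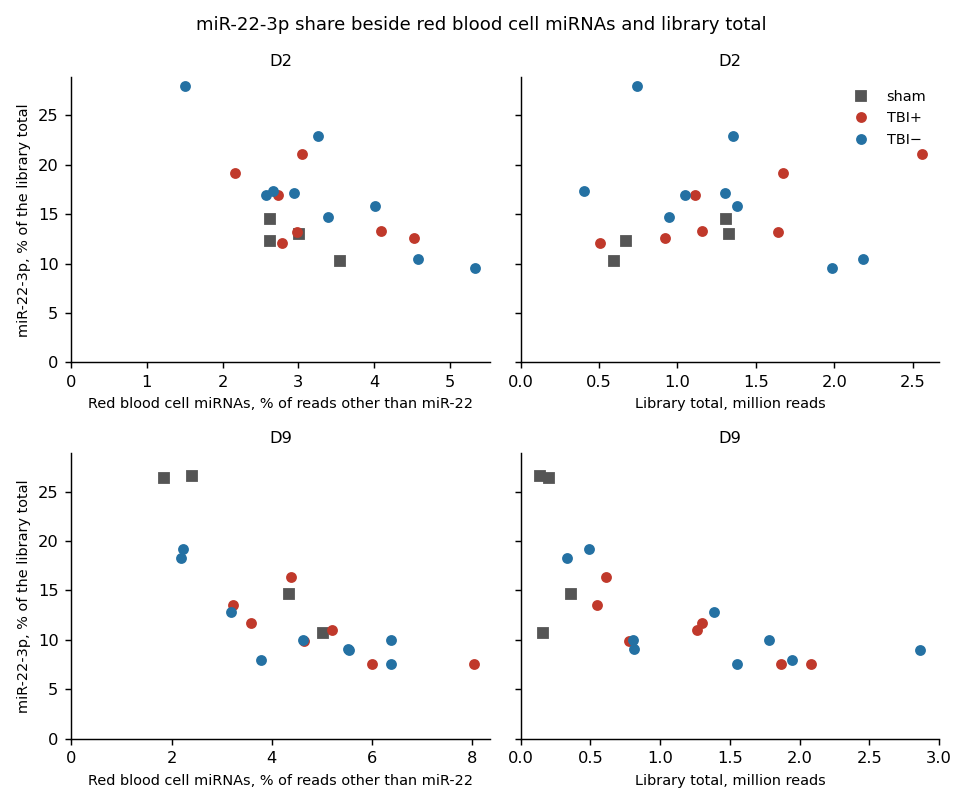
Share of miR-22-3p in percent of the library total (vertical axes) against the red blood cell miRNAs in percent of reads other than miR-22 (left) and against the library total in units of 1000000 reads (right), on D2 (top) and D9 (bottom). Each point is a library; in TBI rats Pearson's r with the red blood cell list was -0.74 on D2 and -0.78 on D9, and with the library total -0.12 and -0.70.

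The miRNAs with the levels most like those of miR-22-3p were miR-378b, miR-676 and miR-328b-3p. Levels were taken relative to the reads other than miR-22 and compared over 40 libraries, 2 from each rat, with the 129 other miRNAs whose count never fell below 10 reads. Spearman's rho was 0.89 for miR-378b, 0.80 for miR-676 and 0.76 for miR-328b-3p, where the median miRNA had -0.01, and the lowest was -0.84 for miR-15b-5p. For miR-378b, rho was 0.79 within D2 and 0.94 within D9.

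Over both days together, the miRNAs most like miR-22-5p were others than those most like miR-22-3p. It was most like miR-152-3p (rho = 0.88), miR-29b-3p (rho = 0.86) and miR-148b-3p (rho = 0.85), again over 40 libraries, where the median miRNA had -0.06. Their rho with miR-22-5p was 0.59, 0.81 and 0.55 within D2, and 0.75, 0.54 and 0.66 within D9. The arms of miR-22 had a rho of 0.58 with each other over 40 libraries, 0.85 within D2 and 0.42 within D9. Within D2, miR-22-5p was thus closer to miR-22-3p than to these miRNAs. These values are descriptions, since all miRNAs of a library share the same denominator and the days differ in both arms.

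MiR-22-3p takes enough of each library to move the CPM of all other miRNAs. The reads left to the other miRNAs ranged from 72.0% of the library in TBI− rat 2 on D2 to 92.5% in TBI+ rat 6 on D9. A miRNA with the same share of the other reads in both libraries would therefore have a 1.28-fold higher CPM in the latter. Between groups or days this shift was smaller. It was -0.06 on the log2 scale for TBI minus sham on D2, 0.14 for TBI minus sham on D9, 0.08 for D9 minus D2 in TBI rats and -0.12 for D9 minus D2 in sham-operated rats.

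Leaving both arms out of the denominator reduced the spread of miR-92a-3p and increased that of miR-28-3p. The study chose miR-28-3p as its PCR reference from these same libraries, for its stable level. Its low spread per all reads is thus not independent of that choice. The coefficient of variation of miR-92a-3p over 40 libraries was 24.2% per all reads and 20.9% per reads other than miR-22. For miR-28-3p it was 14.7% and 17.8%. In the 4 sham-operated D2 libraries miR-28-3p had 1105 ± 16.0 CPM per all reads and 1263 ± 42.4 CPM per reads other than miR-22. A single denominator thus did not give the lower spread for both miRNAs.

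The number of other miRNAs called with edgeR depended on whether miR-22 was in the denominator, when libraries were scaled by total count. For TBI against sham on D2, 38 were called with it and 35 without it, 34 of them with both. On D9 the numbers were 23 and 30, and all 23 were among the 30. The 7 additional miRNAs on D9 were all lower in TBI rats, and leaving out miR-22 moved the log2 fold changes of the others by a median of -0.12. Of the 23 called with miR-22 in the total, 4 were higher in TBI rats. With totals without miR-22 it was 4 of 31, miR-22-3p included. With TMM factors, another scaling method, 6 of the 19 called miRNAs were higher. Among the 7 additional miRNAs, those with the lowest adjusted p without miR-22 were miR-146b-5p (log2 fold change -1.22 and adjusted p = 0.0606 with, -1.28 and 0.0328 without), miR-1247-3p (-2.82 and 0.0537 with, -2.999 and 0.0361 without) and miR-34a-5p (-1.31 and 0.0718 with, -1.43 and 0.0404 without).

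Between the days in TBI rats, 175 other miRNAs were called with miR-22 in the denominator. Of these, 159 were also called without it, and 12 were called only without it. The number of called miRNAs that were higher on D9 was 73 with miR-22 and 57 without it. Of the calls made only without miR-22, miR-361-5p, miR-125a-5p and miR-328a-3p had the lowest adjusted p, at log2 fold changes of -0.49, -0.46 and -0.42. In sham-operated rats 33 were called either way, 30 with both, and let-7i-5p, miR-34a-5p and miR-382-5p were called only without miR-22. For the difference of the day changes 19 were called either way, 16 with both. Leaving out miR-22 moved these log2 estimates by a median of -0.18. With miR-22 in the denominator 8 of the called estimates were positive and 11 negative, and without it 5 and 14.

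TMM factors are computed after the most extreme rows are trimmed. With TMM computed on the whole table or on the table without miR-22, 35 and 32 other miRNAs were called for TBI against sham on D2, of which 30 were shared, and 19 and 20 on D9, of which 18 were shared. Between the days, 184 and 168 were called in TBI rats, of which 167 were shared, and 39 and 31 in sham-operated rats, of which 31 were shared.

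**Figure D5:**
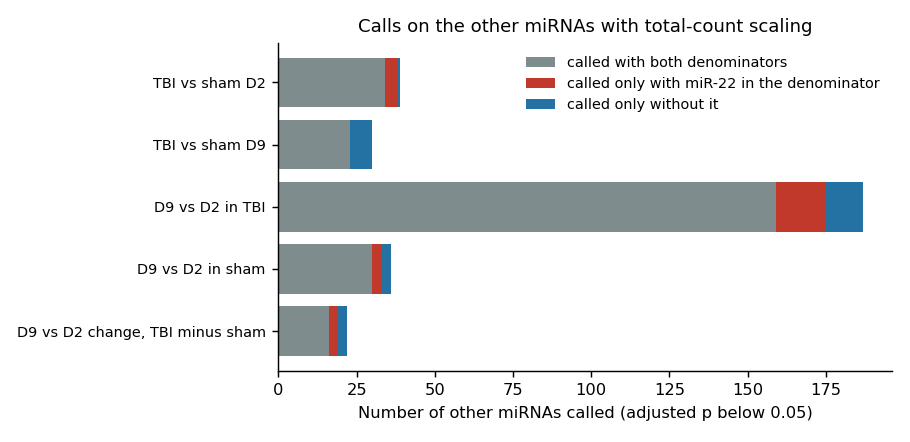
Number of other miRNAs called by edgeR with total-count scaling (horizontal axis; adjusted p below 0.05) in 5 comparisons, divided into those called with both denominators, only with miR-22 in the denominator, and only without it. On D9, 7 miRNAs were called only without miR-22 and 0 only with it; between the days in TBI rats the numbers were 12 and 16.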

How the data were processed

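The authors sequenced small RNA from plasma (single reads, 2 flow cells per sample), trimmed reads with Trimmomatic 0.36, aligned them to Rno6 with Bowtie2 and counted those on miRBase miRNAs with featureCounts. The deposited values are raw read counts, not normalized, for 752 miRNAs in 40 libraries. Members and lists were chosen with earlier results of these data known.

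Groups, rats and days came from the sample titles. Shares and CPM used library totals of 140636 to 2864893 reads. A floor of 3 reads corresponded to 1.05 to 21.3 CPM. Shares, CPM of miR-22-5p and log2 arm ratios were compared by exact permutation tests, two-sided, with Benjamini-Hochberg adjustment over 27 tests. P-values of relations used 100000 permutations. The quasi-likelihood test of edgeR 4.0.16 (R 4.3.3) with TMM factors was fitted on all miRNAs with a read in the libraries compared, and adjusted p-values are over all of them. It and the permutation tests were tested on simulated data. Each edgeR SE is the absolute log2 fold change divided by the square root of the F statistic of its test. The main fit of D9 against D2 had no block for the rat. The days are paired because the titles name the same animals. Correlations of the deviations of both libraries of a rat were between -0.30 and 0.40 (median -0.06, 20 pairs).

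Alternatives were DESeq2 1.42.0, other scalings, a minimum count, a replicate block, 1 run of library numbers, and fits without each of the sham-operated rats. The miR-28-3p scaling rests on a miRNA that the study chose from these same libraries. Named miRNAs are both arms, the next 5 by mean share, the 3 most like each arm, at most 3 per comparison whose call changed without miR-22, the red blood cell list, rows of the other cell type lists, miR-28-3p and miR-23a-3p. Those in the comparison of hairpins and those listed at 0 were named after their values were seen. Sequences were taken from RefSeq (GRCr8), in which 685 of the 752 names were found. Python 3.11.15, scipy 1.17.1 and matplotlib 3.10.9 were used.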

Additional observations from a re-analysis of the deposited data

Results flagged for a closer look

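The CPM of miR-22-5p in sham-operated rat 1 on D2 was 74.0, the lowest of 4 values and far from the other 3, which were between 174 and 181 CPM. In all, 18 groups of values were examined in this way, and chance gives about 1 in 20.

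The day change of the miR-22-3p share in TBI rats differed from that in sham-operated rats by -12.1 percentage points (exact permutation test, two-sided, p = 0.00557). Over 4 fits that each left out 1 sham-operated rat the difference lay between -15.7 and -9.05 points. The D2 and D9 libraries of the sham-operated rats were in different runs of library numbers. Their library totals were 594332 to 1331905 reads on D2 and 140636 to 358202 on D9. The part of the library total in this difference was not tested.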

How the results depend on the processing

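Of 260 alternative values for 40 results, 231 were counted as unchanged, and the cause of the other changes was not tested. A tested value was unchanged if it kept its direction and its side of the threshold of 0.05. For edgeR and DESeq2 this was the adjusted p, and for the permutation tests the p before adjustment. Numbers of called miRNAs were unchanged if they stayed within a fixed factor of the main number. On D9, the edgeR log2 fold change of miR-22-3p in TBI against sham was -0.96 with library totals without miR-22 (adjusted p = 0.0404) and -0.82 with scaling to miR-28-3p (adjusted p = 0.0362), past the threshold in both. With the log2 library total as a covariate, chosen after seeing the data, it was 0.16, that of miR-22-5p was 0.020, and 0 miRNAs were called by edgeR (51 at an unadjusted p below 0.05). Within 1 run of library numbers the share differed by -6.46 points (exact permutation p = 0.257).

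The difference of the day changes of miR-22-3p passed the threshold with RLE factors (-1.49, also -1.49 by DESeq2), total count (-1.18), totals without miR-22 (-1.44), miR-28-3p (-1.41) and a minimum count (-1.24). The difference did not pass in any of the 4 fits without 1 sham-operated rat (-1.46 to -0.82, lowest edgeR adjusted p = 0.0592). In the paired fit with a replicate block it was -1.10 (edgeR adjusted p = 0.0396). The block changed no other call of miR-22, and 7 miRNAs were called for TBI against sham on D9 with the animal number, which does not pair rats between groups. In sham-operated rats, miR-28-3p scaling gave 0.93 for the day change of miR-22-3p (edgeR adjusted p = 0.0451, past the threshold), with 31 of 31 called miRNAs higher on D9 (TMM 17 of 39). Library totals without miR-22 gave 31 calls on D9. TBI+ against TBI− on D2 turned for miR-22-5p to 0.026 with miR-28-3p scaling and to 0.0049 on the log2 scale per other reads.

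Without each sham-operated rat in turn, values ranged as follows. The D9 share difference of miR-22-3p was -11.2 to -5.94 points. For miR-22-5p, TBI minus sham was -4.50 to 31.1 CPM on D2 and -40.8 to -8.05 CPM on D9, and the day change in sham was -1.48 to -0.57 in edgeR. The arm ratio in TBI minus sham was -0.20 to 0.78 on D9, and its day change -0.17 to 0.88. Calls were 21 to 31 on D2, 0 to 23 on D9 and 2 to 46 between the days in sham, the lowest without rat 1, rat 2 and rat 2. At 6 to 29 reads of miR-22-5p, the sham-operated D9 libraries limit its precision.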
